A study of Rattus with 12 samples.

Results

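The genes described here carry antigen presentation by the major histocompatibility complex (MHC), which in the rat is named RT1. They were taken from the count table by symbol, as 5 genes of the class I route (B2m, RT1-A2, Tap1, Tap2 and Tapbp) and 5 of the class II route (Cd74, RT1-Da, RT1-Db1, RT1-Ba and Ciita). All 10 symbols were found among the 17337 genes listed, and all 10 were among the 12271 genes that passed the filter on low counts. RNA was measured in 12 cultures of Sprague Dawley rat cortical neurons, astrocytes and oligodendrocyte precursor cells (OPCs), which were bought as primary cells and grown together. The cultures received no fentanyl (untreated; letters A, G, M and P), 0.01 μM fentanyl (low dose; B, H, N and Q) or 10 μM fentanyl (high dose; C, I, O and R) for 4 days, with 4 cultures per condition and nothing else that differed between them by label. Fentanyl is a synthetic opioid that acts on the μ-opioid receptor, and the comparison of doses asked how the cells' RNA differed after sub-chronic exposure. Microglia were not among the cells added. The study describes the cultures of a condition as biological replicates. The labels do not say whether they came from separate preparations, so the p-values measure only the spread between these cultures.

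Class I molecules sit on nearly every nucleated cell and show peptides made in the cytosol of that cell. The heavy chain, here RT1-A2, pairs with the light chain B2m, and it is loaded in the endoplasmic reticulum with peptides that the transporter of Tap1 and Tap2 brings in and that Tapbp (tapasin) helps to fit. Class II molecules are made mainly by dedicated antigen-presenting cells, in the brain chiefly by microglia and other macrophages, and they show peptides from material the cell has taken up. Their α and β chains (RT1-Da with RT1-Db1, and RT1-Ba with its partner RT1-Bb) assemble on the invariant chain Cd74, and their genes are switched on by the transactivator Ciita. Both routes are known targets of interferon signalling.

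The total count per culture was between 12059872 and 17023909 without fentanyl, 12907388 and 16512387 with the low dose, and 15102785 and 24813893 with the high dose. Levels are given as CPM, which scale the counts of each culture to a common total over the genes tested, after correction by the TMM method of edgeR. CPM do not take gene length into account, so levels are compared between cultures and not between genes. The letters run consecutively across the doses, as the letter sets A-B-C, G-H-I and M-N-O with P-Q-R as the last, each in the order untreated, low dose and high dose. No label marks these letter sets as a batch or a pairing, and they are used here to describe the values. Culture G stood apart from the rest. Its 14 neuronal markers summed to 280 CPM, against 3210 to 4818 CPM in the other 11 cultures. Its endothelial markers had the highest sum of all cultures, at 69.1 CPM. Its sums of microglial markers (2221 CPM) and of fibroblast and mural markers (1827 CPM) were high, but N had 2339 and 3006 CPM. Not every marker of these lists was high in G, as Pecam1 had 0.78 CPM there and 4.89 in N. Results are therefore also given without culture G.

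The class I genes were expressed in all 12 cultures, with the lowest count of any of the 5 genes in a culture being 259. B2m, the light chain, had 1465 CPM in A, 2220 in G, 1034 in M and 826 in P among the untreated cultures. At the low dose it had 1381 CPM in B, 1099 in H, 1007 in N and 918 in Q, and at the high dose 1653 in C, 1136 in I, 1183 in O and 1028 in R. The untreated values spanned those of both doses, because G was the highest and P the lowest of all 12 cultures. The mean of the 4 cultures was 1387 ± 616 CPM (SD) without fentanyl, 1101 ± 200 at the low dose and 1250 ± 276 at the high dose.

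RT1-A2, a heavy chain of the class I molecule, had 449, 527, 280 and 184 CPM in the untreated cultures A, G, M and P. The low dose cultures B, H, N and Q had 406, 360, 351 and 200 CPM, and the high dose cultures C, I, O and R had 493, 362, 400 and 283 CPM. As for B2m, the 3 conditions overlapped, and the cultures of P-Q-R were the lowest at each dose. RT1-A2 had 21.8 to 34.8 counts for every 100 counts of B2m over the 12 cultures, so that heavy and light chain moved together. The rat genome holds many near-identical class I genes, and the cultures are of another strain than the reference genome, so counts of single RT1 class I genes are uncertain where copies share reads.

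Tap1, the first subunit of the peptide transporter, had 38.1, 65.0, 29.8 and 21.5 CPM in the untreated cultures A, G, M and P. It had 36.9, 24.4, 34.4 and 21.3 CPM in the low dose cultures B, H, N and Q, and 46.9, 29.1, 39.5 and 27.4 CPM in the high dose cultures C, I, O and R. In each letter set the high dose culture lay above the low dose culture, although the conditions overlapped. Tap2, the partner subunit, had 63.3, 145, 62.5 and 55.0 CPM without fentanyl, 66.9, 53.7, 80.9 and 61.5 at the low dose and 69.1, 63.3, 78.1 and 68.0 CPM at the high dose, in the same order of letters. Apart from G, the 11 cultures spanned a 1.51-fold range of Tap2, the narrowest of the 10 genes. The ratio of the transporter's subunits differed between letter sets, with 55.1 to 67.9 counts of Tap1 per 100 counts of Tap2 for A-B-C, 44.8 to 46.0 for G-H-I, 42.5 to 50.5 for M-N-O and 34.6 to 40.2 for P-Q-R.

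Tapbp, the chaperone that joins the transporter to the heavy chain, had 60.4, 91.2, 34.4 and 23.2 CPM in the untreated cultures A, G, M and P. It had 56.3, 46.7, 49.1 and 23.4 CPM in B, H, N and Q at the low dose, and 59.8, 45.6, 50.0 and 27.8 CPM in C, I, O and R at the high dose. P-Q-R was lowest again, and the doses overlapped.

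**Figure D1:**
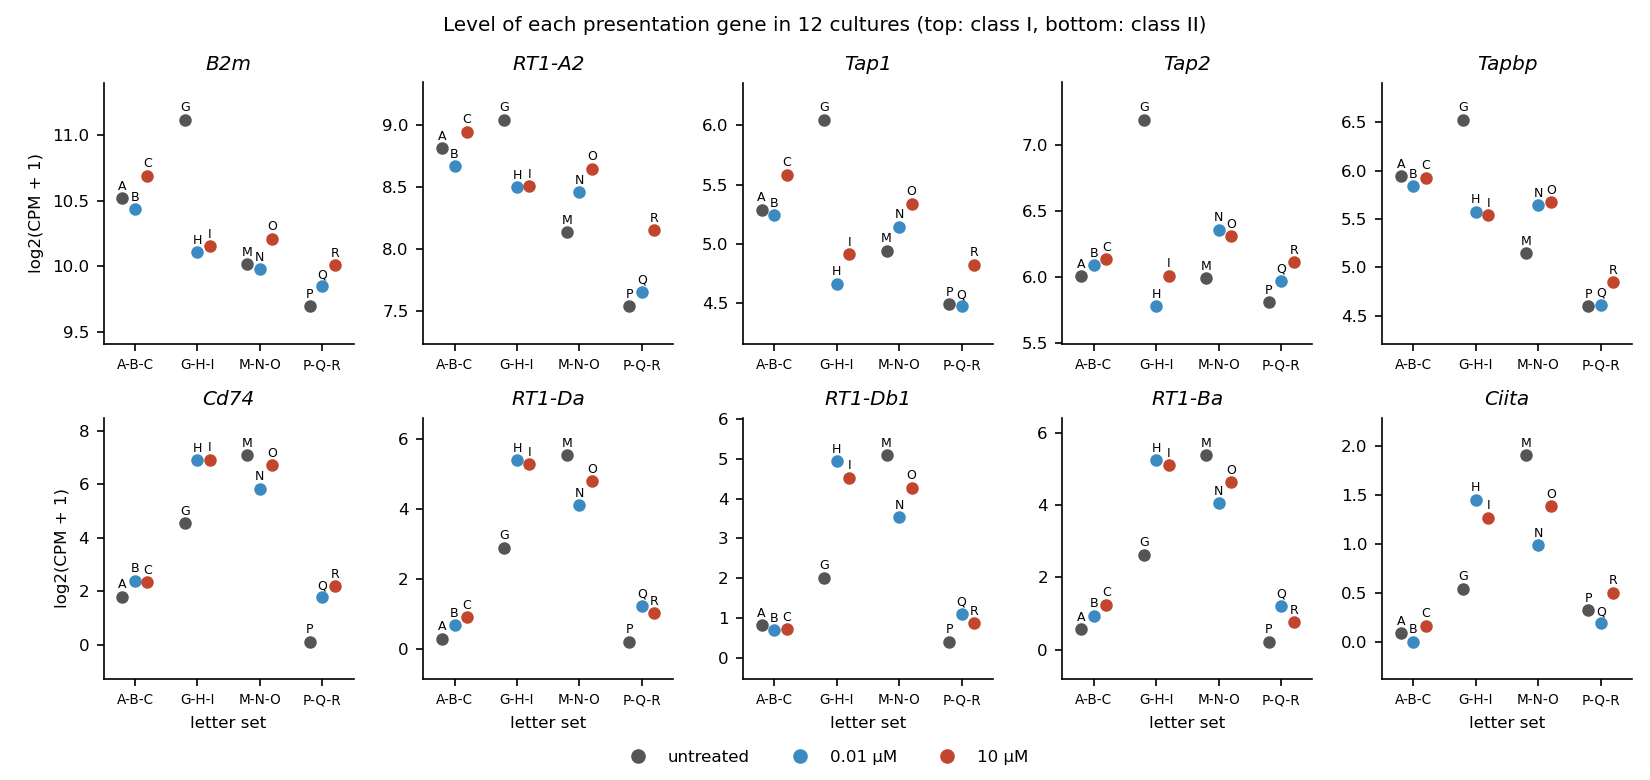
Level of each of the 10 genes as log2(CPM + 1) in the 12 cultures, by letter set on the x axis and by dose in color, with the letter of the culture above each point. The 5 class I genes (top) are highest in culture G. Of the 5 class II genes (bottom), Cd74 and the RT1 chains are high in G-H-I and M-N-O and low in A-B-C and P-Q-R at every dose. Ciita has the same pattern except in G, where its 0.45 CPM is close to the 0.41 CPM of R.

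The class II genes had another pattern, in which the letter set and not the dose separated the cultures. Cd74, the invariant chain, had 2.48, 4.23 and 4.03 CPM in A, B and C, and 0.083 (1 count), 2.41 and 3.56 CPM in P, Q and R. It had 22.4, 119 and 120.0 CPM in G, H and I, and 135, 55.9 and 104 CPM in M, N and O. Each of the 6 cultures of G-H-I and M-N-O lay above each of the 6 others, whatever the dose. By dose, the mean was 40.0 ± 64.1 CPM (SD, n = 4) without fentanyl, 45.3 ± 54.8 at the low dose and 57.9 ± 62.9 at the high dose, so that the SD exceeded the mean in every condition.

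The chains of the class II molecule followed Cd74. RT1-Da, the α chain of RT1-D, had 0.24, 0.62 and 0.89 CPM in A, B and C, 6.42, 40.9 and 37.6 in G, H and I, 45.3, 16.2 and 26.6 in M, N and O, and 0.17, 1.38 and 1.03 in P, Q and R. RT1-Db1, the β chain that pairs with it, had 0.77, 0.62 and 0.65 CPM, then 3.05, 29.6 and 22.0, then 33.1, 10.6 and 18.3, and last 0.33, 1.17 and 0.83 CPM in the same order. RT1-Ba, the α chain of RT1-B, had 0.47, 0.92 and 1.36 CPM, then 5.19, 37.1 and 33.4, then 40.9, 15.7 and 23.9, and last 0.17, 1.31 and 0.70 CPM. All 3 chains were thus high in G-H-I and M-N-O and low in the other sets at every dose, with untreated M the highest culture for each. In P, the values rest on 2 counts of RT1-Da, 4 of RT1-Db1 and 2 of RT1-Ba, so the level there is at or near the floor of 3 counts taken as the limit of this depth. Limits of this kind cover counting error only.

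In the 6 cultures of G-H-I and M-N-O, where Cd74 had at least 345 counts, the chains kept a narrow ratio to it. There were 25.6 to 34.5 counts of RT1-Da per 100 counts of Cd74, 22.9 to 31.3 of RT1-Ba and 13.6 to 24.9 of RT1-Db1. The partner chain RT1-Bb did not keep such a ratio to RT1-Ba. It had 0 counts in G, which allows up to 3, and 14.0, 15.0, 12.6, 8.33 and 4.86 counts per 100 counts of RT1-Ba in H, I, M, N and O. RT1-Bb thus ran from 0 counts in G to 100 in I.

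Ciita, the transactivator of class II genes, had 1, 0 and 2 counts in A, B and C and 3, 2 and 10 counts in P, Q and R. It had 7, 28 and 28 counts in G, H and I, and 40, 15 and 25 counts in M, N and O. As for Cd74, M was the highest culture, and 5 of the 12 cultures held 3 counts or fewer. At these counts a difference between doses within A-B-C was not detectable at this depth.

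Microglia, the chief class II cells of the brain, were checked by their markers, which differed between the letter sets too. Of 18 microglial markers listed, 17 were in the table and all 17 were tested, and none of them was at 0 in 11 of the cultures, while 1 (Cx3cr1) was at 0 in R. Their sum was 696 to 974 CPM in A-B-C, 201 to 223 CPM in P-Q-R, 2221, 1259 and 1546 CPM in G, H and I, and 1071, 2339 and 1614 CPM in M, N and O. By dose, the sum ran from 214 to 2221 CPM without fentanyl, from 223 to 2339 at the low dose and from 201 to 1614 CPM at the high dose. In RNA from whole cultures, fewer cells of a type and less RNA per cell cannot be told apart.

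Cd74 did not keep a fixed ratio to these markers. For every 100 CPM of microglial markers there were 0.36 to 0.51 CPM of Cd74 in A-B-C, whose microglial sum was well above that of P-Q-R, where the ratio was 0.039, 1.08 and 1.77 in P, Q and R. In G, H and I the ratio was 1.01, 9.42 and 7.77, and in M, N and O it was 12.6, 2.39 and 6.45. Within M-N-O the order was opposite, since M had the lowest microglial sum and the highest Cd74, and N the reverse. N also had the highest sum of 9 fibroblast and mural markers, at 3006 CPM against 499 in M and 295 in O, and G had 1827 CPM against 79.8 in H and 66.9 in I. The part of microglia and of these other cells in the class II levels was not tested. Markers of B cells and dendritic cells, which also make class II molecules, and of T cells together summed to 9.09 to 15.8 CPM. Of the 14 listed, 12 were in the table and 3 were tested, from 4 to 7 of the 12 were at 0 in any one culture, and Xcr1 had no count in any. The B cell marker Ms4a1 and the T cell marker Cd3g had at most 1 count in a culture. Other markers of the list had more. Flt3 ran from 13 counts in G to 137 in I, Zbtb46 from 58 in P to 143 in R, and Clec9a from 1 in A to 61 in R. Ccr7 reached 40 counts in N, and Cd8a reached 30 in G.

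**Figure D2:**
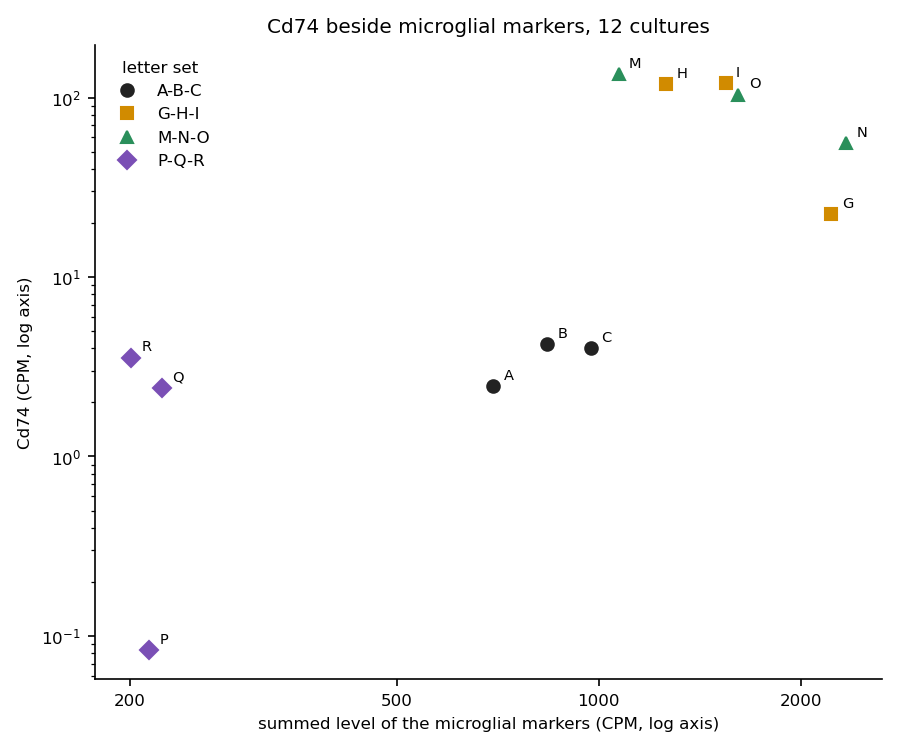
Cd74 (CPM, log axis) against the summed level of 17 microglial markers (CPM, log axis) in the 12 cultures, with a symbol for each letter set and the letter of each culture. A, B and C lie at 2.48 to 4.23 CPM of Cd74 although their microglial sum is 696 to 974 CPM, and M, N and O fall from 135 to 55.9 CPM of Cd74 as the microglial sum runs from 1071 to 2339 CPM.

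The share of variation between letter sets and between doses was set out for each gene as a description. Over the 12271 genes tested, the median share of the sum of squares of log2(CPM + 1) was 55.7% between letter sets and 8.70% between doses. The class II genes lay above the first median and below the second, with 89.9% and 3.98% for Cd74, 89.0% and 2.51% for RT1-Da, 83.6% and 1.68% for RT1-Db1, 87.3% and 2.82% for RT1-Ba, and 78.9% and 1.38% for Ciita. Of the class I genes, RT1-A2 and Tapbp had 76.5% and 77.5% between letter sets, B2m had 55.9%, Tap1 had 43.7% and Tap2 had 15.1%. Without culture G the medians over all genes were 75.3% and 7.96%, and the letter sets held 95.1% for Cd74 and 96.6% for RT1-Ba. The doses then held 22.2% for Tap2, 14.5% for Tap1, 14.0% for RT1-A2 and 9.47% for B2m, which were above the median, against 1.26% to 6.15% for the 5 class II genes and 4.94% for Tapbp.

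**Figure D3:**
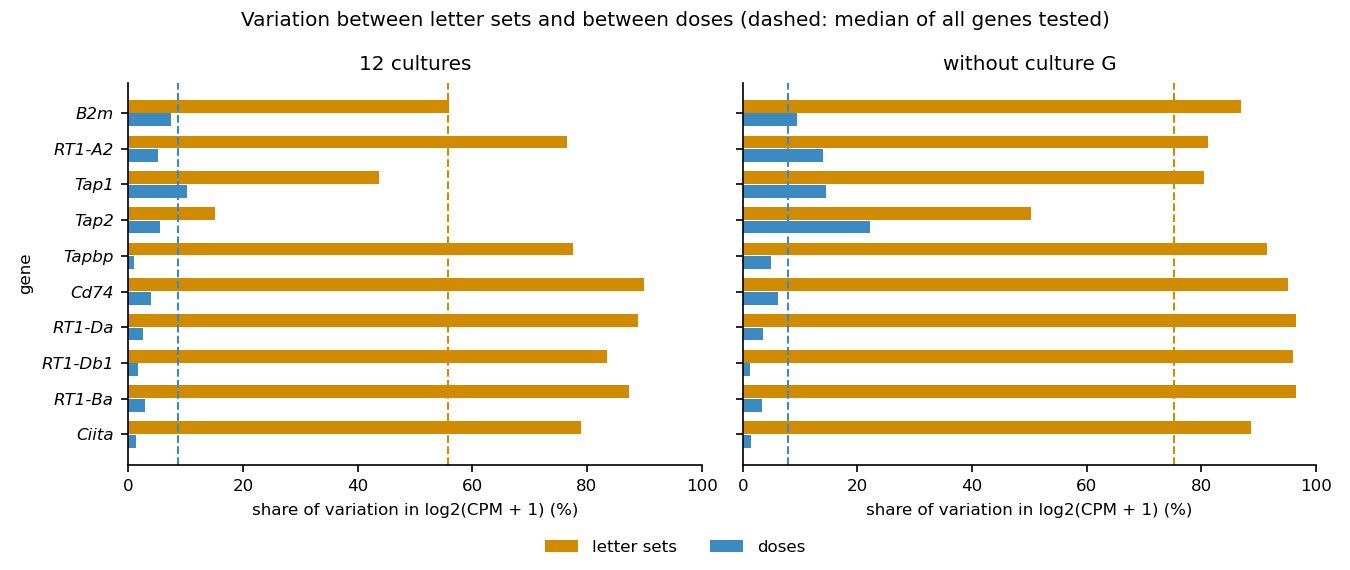
Share (%) of the variation in log2(CPM + 1) of each gene that lay between letter sets (orange bars) and between doses (blue bars), over 12 cultures (left) and without culture G (right), with dashed lines at the medians of all genes tested. The letter sets hold 78.9% to 89.9% for the 5 class II genes, and the share between doses of Tap2 is 5.48% with culture G and 22.2% without it.

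For low dose vs. untreated cultures, the quasi-likelihood test of edgeR with 1 factor of unwanted variation called no gene, a call being an absolute log2 fold change above 0.5 together with an adjusted p under 0.05. None of the 10 genes was called, with 0% called over all genes tested. None had an unadjusted p under 0.05 either, against 0.733% of all genes (90 genes), and DESeq2 and the likelihood ratio test of edgeR gave 0 of the 10 at that level too. The log2 fold change was -0.12 ± 0.25 (SE) for B2m, 0.03 ± 0.31 for RT1-A2, -0.14 ± 0.25 for Tap1, 0.01 ± 0.11 for Tap2 and 0.03 ± 0.36 for Tapbp. The errors of the class II genes were several times as wide, with 0.33 ± 1.73 for Cd74, 0.30 ± 1.76 for RT1-Da, 0.23 ± 1.63 for RT1-Db1, 0.34 ± 1.68 for RT1-Ba and -0.19 ± 1.26 for Ciita. The adjusted p was 0.9999 for each of the 10 genes. The class II values rested on the untreated culture M. Without it, the log2 fold change was 4.52 for Cd74, 5.76 for RT1-Da, 3.99 for RT1-Db1 and 4.97 for RT1-Ba, with unadjusted p of 0.0326, 0.0197, 0.0431 and 0.0234 by edgeR (against 1.85% of all genes under 0.05) and an adjusted p of 0.9999 for each. These values come from the fit with 1 factor, and leaving out M leaves N and O without the untreated culture of their letter set. The remaining untreated cultures had 2.48 (A), 22.4 (G) and 0.083 (P) CPM of Cd74. Low dose cultures had 2.41 to 119 CPM, so the conditions still overlapped.

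In no gene of the 10 did the low dose and untreated cultures lie apart without overlap, where 0.407% of all genes did so. None of the 10 was higher at the low dose in all 4 letter sets, against 4.06% of all genes. In the 3 letter sets other than G-H-I, 1 of the 10 was higher in each, against 13.9% of all genes. That gene was Tap2, with differences in log2(CPM + 1) of 0.08 for A-B-C, 0.37 for M-N-O and 0.16 for P-Q-R, against -1.42 for G-H-I, whose untreated culture is G. The class II genes differed in opposite directions between sets, and Cd74 was higher by 2.36 in G-H-I and differed by -1.26 in M-N-O on this scale. Ciita was the 1 gene of the 10 that was lower at the low dose in each of the 3 sets other than G-H-I, against 13.7% of all genes. A member's direction against the untreated cultures thus depended on the letter set.

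For high dose vs. untreated cultures, no gene of the 10 was called, as of all genes tested (0%). None had an unadjusted p under 0.05, against 1.19% of all genes (146 genes), and DESeq2 and the likelihood ratio test gave 0 of the 10 as well. The log2 fold change was 0.05 ± 0.25 (SE) for B2m, 0.25 ± 0.31 for RT1-A2, 0.15 ± 0.25 for Tap1, 0.09 ± 0.11 for Tap2 and 0.08 ± 0.36 for Tapbp. For the class II genes it was 0.61 ± 1.71 for Cd74, 0.41 ± 1.73 for RT1-Da, 0.18 ± 1.60 for RT1-Db1, 0.39 ± 1.66 for RT1-Ba and 0.07 ± 1.23 for Ciita. The adjusted p was 0.9998 for each. Here too the class II values rested on the untreated culture M. Without it, the log2 fold change was 4.63 for Cd74, 5.60 for RT1-Da, 3.79 for RT1-Db1 and 4.83 for RT1-Ba, with unadjusted p of 0.0286, 0.0196, 0.0487 and 0.0240 by edgeR (against 3.66% of all genes under 0.05) and an adjusted p of 0.9995 for each. The same limits hold for this fit, since Cd74 had 22.4 CPM in the untreated culture G and 3.56 to 120.0 CPM in the high dose cultures. RT1-A2 had an unadjusted p of 0.00939 with a log2 fold change of 0.31 when G was left out of the same model of edgeR (2.35% of all genes under 0.05), and 0.0128 with 0.58 when A was left out (4.05%). The adjusted p of RT1-A2 was then 0.9999 and 0.752.

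None of the 10 genes separated the high dose from the untreated cultures without overlap, against 0.685% of all genes, and none was higher in all 4 letter sets, against 5.22%. In the 3 letter sets other than G-H-I, 4 of the 10 were higher at the high dose in each, against 15.1% of all genes. These were B2m, RT1-A2, Tap1 and Tap2, all of the class I route. Apart from G-H-I, the differences in log2(CPM + 1) were 0.29, 0.40 and 0.33 for Tap1, and 0.17, 0.19 and 0.31 for B2m, in alphabetical order of the sets. In G-H-I, it was -1.13 for Tap1 and -0.97 for B2m, where G was the untreated culture. Tapbp differed by 0.53 in M-N-O, by 0.25 in P-Q-R, and by -0.01 in A-B-C.

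For high dose vs. low dose cultures, a comparison in which culture G enters neither mean but adds to the spread, again none of the 10 was called, as of all genes (0%). None had an unadjusted p under 0.05, against 1.17% of all genes (144 genes), and none by DESeq2 or the likelihood ratio test. The log2 fold change was 0.17 ± 0.24 (SE) for B2m, 0.22 ± 0.30 for RT1-A2, 0.28 ± 0.24 for Tap1, 0.08 ± 0.11 for Tap2 and 0.05 ± 0.35 for Tapbp. Among the class II genes it ran from -0.05 ± 1.61 for RT1-Db1 to 0.28 ± 1.72 for Cd74. The adjusted p was 0.9998 for each, and the doses overlapped in all 10 genes, where 1.19% of all genes did not overlap. When G was left out of the same model of edgeR, RT1-A2 had 0.21 with an unadjusted p of 0.0387 and Tap1 had 0.27 with 0.0440, against 4.25% of all genes under 0.05, and the adjusted p of both was 1.

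Within the letter sets, B2m, RT1-A2 and Tap1 were higher at the high than at the low dose in all 4, so 3 of the 10, against 11.7% of all genes. On the log2(CPM + 1) scale, the differences of Tap1 were 0.34, 0.25, 0.19 and 0.35 in alphabetical order of the sets, a mean of 0.28 ± 0.08 (SD, n = 4 letter sets). B2m differed by 0.26, 0.05, 0.23 and 0.16, and RT1-A2 by 0.28, 0.01, 0.19 and 0.50. The exact two-sided permutation test over the 70 arrangements of 4 against 4 cultures, which does not use the letter sets, gave p = 0.286 for Tap1, p = 0.429 for B2m and p = 0.486 for RT1-A2, where 0.0286 is the smallest p possible. All 5 class II genes had at least 1 letter set in which the high dose culture was the lower one. RT1-Ba, for example, differed by 0.30, -0.15, 0.58 and -0.44. The sum of the neuronal markers was also higher at the high dose each time, with 4355 and 4742 CPM in B and C, 4307 and 4750 in H and I, 3480 and 4285 in N and O, and 3210 and 3925 CPM in Q and R. Culture G, which is not part of this comparison, had the lowest neuronal sum and the highest level of each class I gene. Of the 14 neuronal markers, none at 0 in any culture, 6 were higher in all 4 letter sets (11.7% of all genes). Another 1 was lower in all 4 (11.1% of all genes), without overlap (0.522%). Among the 7 OPC markers, 3 were higher in all 4 and 0 were lower, while 0 of the 17 microglial markers were higher or lower. Of the 10 astrocyte markers tested, 0 were higher and 2 were lower in all 4. Of the 7 fibroblast and mural markers tested, 0 were higher and 1 was lower. The part of the neuronal share in the class I differences was not tested.

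**Figure D4:**
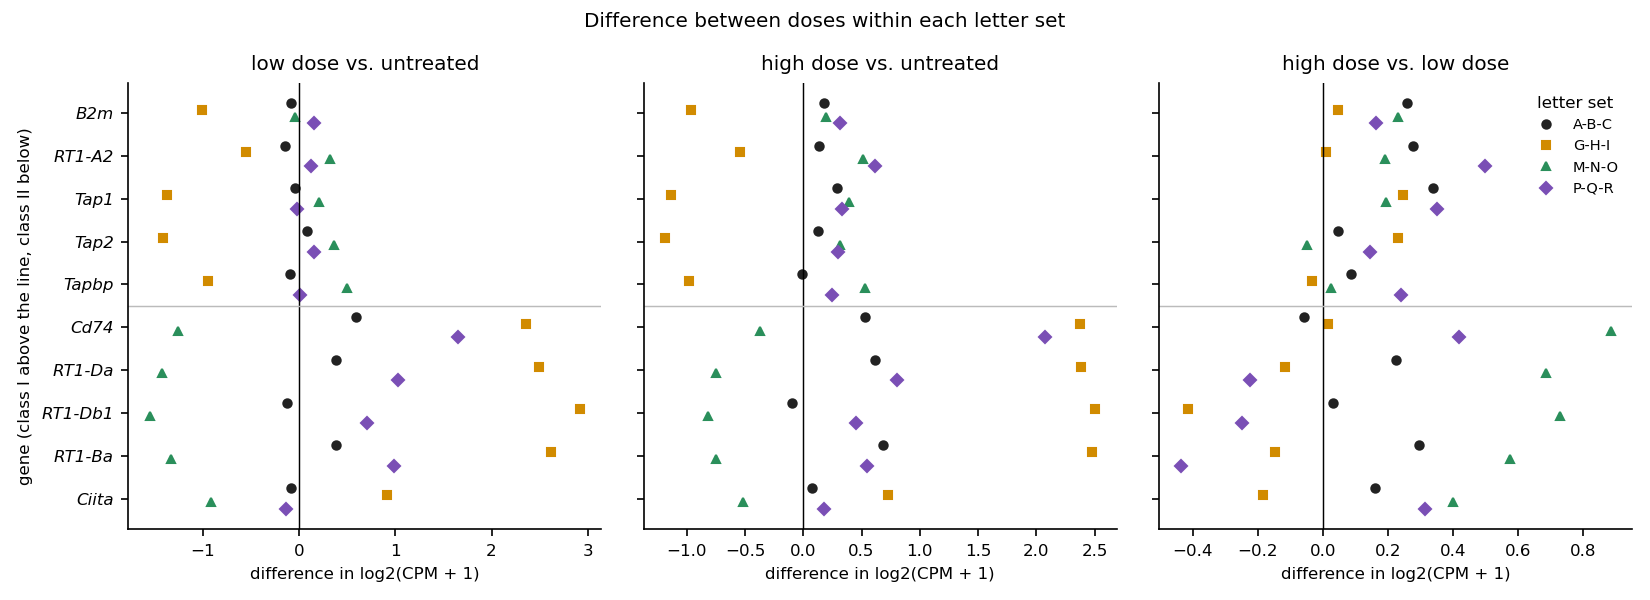
Difference between doses in log2(CPM + 1) within each letter set, for the 10 genes (class I above the gray line, class II below) and the 3 comparisons, with a symbol for each letter set. Against the untreated cultures, the squares of G-H-I lie at -0.54 to -1.42 for the class I genes, and in high dose vs. low dose cultures all 4 symbols of B2m, RT1-A2 and Tap1 lie above 0.

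The same comparisons were fitted with the letter sets as a block in place of the factor and without culture G, a model that takes the letter sets as a pairing that no label states. In it, the standard errors of the class I genes were 0.06 to 0.11. At an unadjusted p under 0.05 were 1 of the 10 genes for low dose vs. untreated cultures (7.54% of all genes), 4 for high dose vs. untreated (9.43%) and 3 for high dose vs. low dose (13.6%). Tap1 had a log2 fold change of 0.35 ± 0.07 (SE) in high dose vs. untreated cultures, with an adjusted p of 0.151 by the quasi-likelihood test of edgeR, and 0.29 ± 0.07 between the doses, with an adjusted p of 0.132. RT1-A2 had 0.38 ± 0.11 and 0.24 ± 0.10 in these comparisons, B2m had 0.21 ± 0.07 and 0.17 ± 0.06, and Tap2 had 0.27 ± 0.08 and 0.09 ± 0.07. None of the 10 genes passed the adjusted threshold in this model. The class II genes had log2 fold changes of -0.98 to -0.28 (low dose vs. untreated), -0.69 to 0.12 (high dose vs. untreated) and 0.05 to 0.47 (high dose vs. low dose), with none at an unadjusted p under 0.05.

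**Figure D5:**
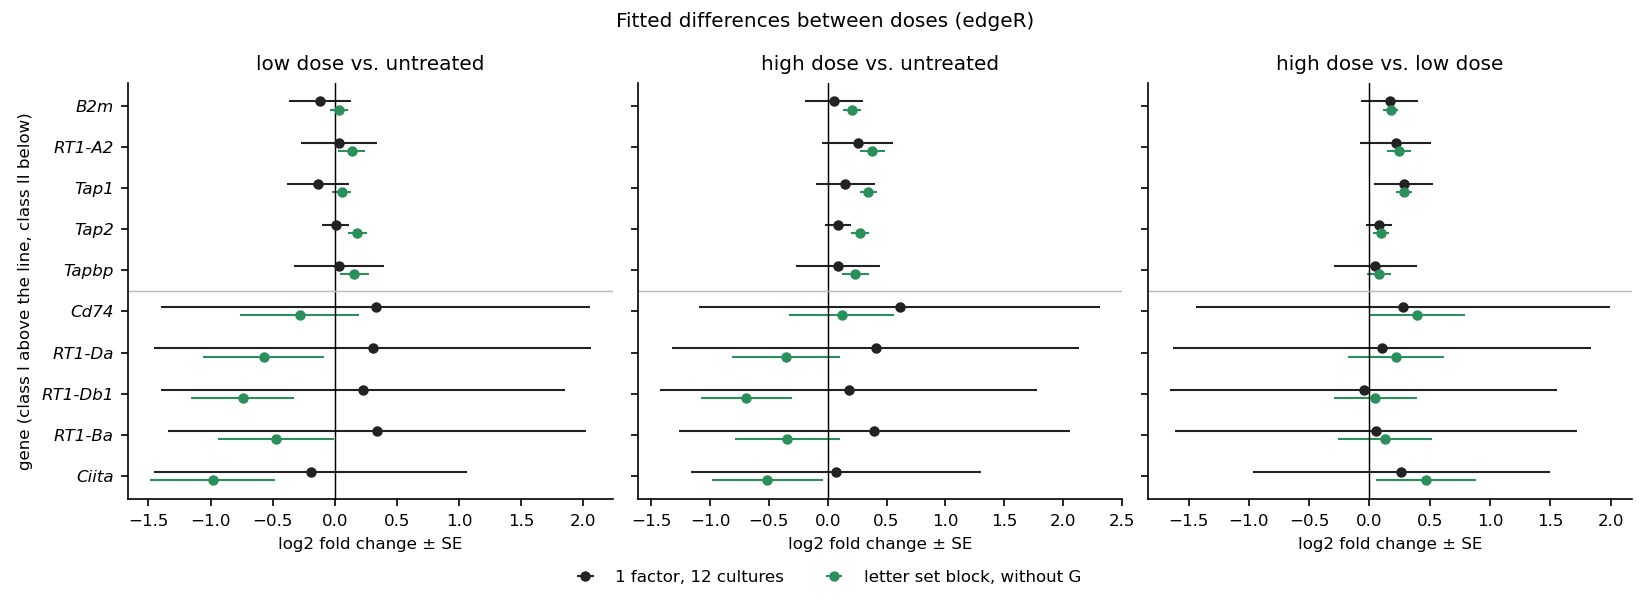
Log2 fold changes with standard errors of the 10 genes in the 3 comparisons, from the model with 1 factor and all 12 cultures (black) and from the model with the letter sets as a block and without culture G (green). In the green model, Tap1 lies at 0.35 ± 0.07 in high dose vs. untreated cultures, while Cd74 lies at 0.12 ± 0.45.

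The other genes of the class I route were read from a wider list of 41 symbols, of which 40 were in the table and 34 were tested, 22 of them further RT1 genes. None was called in any comparison, and none had an unadjusted p under 0.05. In high dose vs. low dose cultures, 19 of the 34 were higher in all 4 letter sets, against 11.7% of all genes, and 0 were lower in all 4. They were 12 of the 22 RT1 genes (54.5%), which share reads with each other, and 7 of the 12 other genes (58.3%). The median log2 fold change of the 34 genes was 0.20 in this comparison and 0.20 in high dose vs. untreated cultures, and 0.03 in low dose vs. untreated cultures. Over all genes tested, the medians were -0.01, 0.00 and 0.01 in the same order. Against the untreated cultures, 1 of the 34 was higher in all 4 letter sets at the high dose (5.22% of all genes). At the low dose 1 was higher (4.06% of all genes) and 1 was lower (5.28%).

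Among the 12 other class I genes, the chaperones of the endoplasmic reticulum Canx (calnexin) and Calr (calreticulin) had the highest levels. Canx had 1483 ± 136, 1377 ± 121 and 1445 ± 61.4 CPM (SD, n = 4) in untreated, low dose and high dose cultures, and Calr had 1291 ± 382, 1246 ± 174 and 1339 ± 233 CPM. Lnpep, an aminopeptidase, had the smallest p of them for low dose vs. untreated (-0.35 ± 0.26) as well as for high dose vs. low dose (0.41 ± 0.25, log2 fold change and SE, higher in all 4 letter sets). Psmb10, a subunit of the immunoproteasome that cuts peptides for class I molecules, had the smallest p for the high dose against untreated cultures, with 0.21 ± 0.11. Its partner subunits Psmb8 and Psmb9, named here after their values were seen, were higher at the high than at the low dose in all 4 letter sets with log2 fold changes of 0.22 ± 0.48 and 0.48 ± 0.52. The adjusted p of each of these genes was 0.9998 or 0.9999 by edgeR.

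Of 16 further class II genes listed, 15 were in the table and 12 were tested, and 0 of the 12 were higher in all 4 letter sets in high dose vs. low dose cultures, against 11.7% of all genes. Against the untreated cultures, 3 of the 12 were higher in all 4 sets at the low dose (4.06% of all genes) and 2 at the high dose (5.22%). None was called in any comparison. Their median log2 fold change was 0.56 for the low and 0.44 for the high dose against untreated cultures, and -0.06 between the doses. The lysosomal proteases Ctsl and Lgmn, which trim the invariant chain and antigens, had the highest levels, with 928 ± 583, 712 ± 207 and 688 ± 196 CPM (SD, n = 4) for Ctsl and 284 ± 148, 269 ± 84.9 and 274 ± 61.3 CPM for Lgmn in untreated, low dose and high dose cultures. March1, a ubiquitin ligase that takes class II molecules off the cell surface, had the smallest p against the untreated cultures. It had 2.89, 3.50, 3.98 and 4.82 CPM in A, G, M and P, 5.08, 4.45, 7.90 and 5.64 CPM in B, H, N and Q, and 4.50, 6.92, 6.90 and 4.88 CPM in C, I, O and R. March1 was higher in all 4 letter sets at both doses, with log2 fold changes of 0.62 ± 0.26 at the low and 0.63 ± 0.26 at the high dose, but the adjusted p was 0.9999 and 0.9998 in these comparisons, which share their untreated cultures. Cd40, a co-stimulatory receptor of antigen-presenting cells, had the smallest p between the doses, with a log2 fold change of -0.19 ± 0.35 and an adjusted p of 0.9998. Its mean level was 1.75 CPM without fentanyl, 1.29 at the low and 1.06 CPM at the high dose. The untreated culture G alone had 5.25 CPM, and the fitted log2 fold change of 0.86 ± 0.38 for low dose vs. untreated ran opposite to the means.

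RT1-DMb, a chain of the molecule that exchanges peptides on class II, was named after its values were seen. The reason was that it did not follow Cd74 in A-B-C and M-N-O. It had 18.9, 24.5 and 30.9 CPM in A, B and C, where Cd74 was at 2.48 to 4.23 CPM. In M, N and O it had 49.1, 118 and 72.2 CPM, which is the order of the microglial markers and the reverse of that of Cd74. In P, Q and R it had 1.83, 4.81 and 2.56 CPM. At both doses RT1-DMb was higher than in the untreated culture in all 4 letter sets. Within G-H-I it was thus lowest in G, as Cd74 was, while the microglial sum was highest in G.

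Of 22 regulators listed, 20 were in the table and 18 were tested, and 2 of the 18 (Irf1 and Jak1) were higher in all 4 letter sets in high dose vs. low dose cultures, against 11.7% of all genes. At the low dose against no fentanyl, 3 of the 18 (Nfya, Creb1 and Jak1) were lower in all 4 sets, where 5.28% of all genes were, and 2 of them (Nfya and Creb1) without overlap, against 0.407% of all genes without overlap in either direction. Jak1, a kinase of the interferon receptors, had 328 ± 79.2, 315 ± 63.9 and 344 ± 55.5 CPM (SD, n = 4) in untreated, low dose and high dose cultures, and Ifnar1, a chain of the type I interferon receptor, had 211 ± 32.6, 195 ± 28.3 and 195 ± 33.1 CPM. Nfya, a subunit of the factor that binds the CCAAT box of class II promoters, had a log2 fold change of -0.25 ± 0.13 at the low dose against no fentanyl. Creb1, a transcription factor that also binds class II promoters, had 0.40 ± 0.18 at the high dose against the low dose, with an unadjusted p of 0.0452 and an adjusted p of 0.9998 in the fit of edgeR over all genes. None of the 18 regulators was called in any comparison. The interferons themselves lay under the floor, as Ifng and Ifnb1 had at most 1 count in a culture.

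Interferon-stimulated genes, a list of 18 of which all were in the table and 16 were tested, also differed between the letter sets. Their summed level was 706, 1027 and 1553 CPM in A, B and C, 516, 282 and 399 CPM in G, H and I, 224, 197 and 427 CPM in M, N and O, and 142, 127 and 159 CPM in P, Q and R. In each set the high dose culture had more than the low dose culture, and 8 of the 16 genes tested were higher at the high dose in all 4 sets, against 11.7% of all genes. A-B-C, which had the highest sums, and P-Q-R, which had the lowest, both had little class II RNA. The part of interferon signalling in the class I levels was not tested.

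The genes whose levels ran most like those of 3 members were found by Spearman's rank correlation of CPM over the 12 cultures, among all genes tested. The 12 points share their letter sets, so the coefficients describe these cultures only and carry no test. For B2m, the most alike were Lgals3bp (0.979), RT1-A2, RT1-A1 and Gbp5 (0.972 each) and RT1-CE14 (0.965). Lgals3bp, a secreted glycoprotein, had its highest level of 267 CPM in G and its lowest of 52.4 CPM in P, as B2m did. For Tap1, they were Irf1 (0.979), Anxa7 and RT1-CE15 (0.958 each), and Arid3a and Lpl (0.951 each). Irf1, a transcription factor induced by interferon, had 34.2 CPM in G and 12.3 CPM in P. For Cd74, they were RT1-Ba, Unc5b and RT1-Db2 (0.937 each), Synj2 (0.930) and Klhl4 (0.902). Unc5b, a receptor for netrin, had 37.6 to 51.5 CPM in the cultures of A-B-C and P-Q-R and 62.5 to 87.8 CPM in those of G-H-I and M-N-O. For Synj2, a phosphoinositide phosphatase, these ranges were 18.8 to 29.5 and 44.1 to 61.2 CPM.

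In the current RefSeq annotation of the rat (GRCr8), all 10 symbols were found, and 7 of them lay on the chromosome of RT1-A2 in the order RT1-Da, RT1-Db1, RT1-Ba, Tap2, Tap1, RT1-A2 and Tapbp. B2m, Cd74 and Ciita lay on other chromosomes. The class II chains and the transporter genes therefore neighbour each other in the annotation, while their levels over the cultures differed: M had the highest RT1-Ba of the 12 cultures at 40.9 CPM, and its Tap2 of 62.5 CPM was close to that of A at 63.3 CPM. The deposited counts were made on another build, rn6, so no coordinates are given.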

How the data were processed

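Poly(A) RNA of 12 cultures was sequenced with a kit that does not mark strand, so reads of a gene and of an antisense partner cannot be told apart. Alignment by the authors was to rn6, a rat genome build, with STAR. They used featureCounts for the count of each gene and deposited these whole-number counts without normalization. The annotation and the treatment of reads that match several places are not given in the sources used here. The dose of each culture came from its label, and 0 columns were left unused.

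From the counts, CPM were computed after TMM scaling in edgeR 4.0.16 (R 4.3.3), and 12271 of 17337 genes were kept by filterByExpr on the 3 conditions. The remaining genes included 2226 without a count. The study names RUVseq without its settings, so 1 factor was taken from the replicates within each condition by a rewritten RUVs formula. All 12 cultures entered 1 model with the 3 conditions and this factor, tested by the quasi-likelihood test, and p-values were adjusted over all tested genes (Benjamini-Hochberg). The factor was 2.96 in G and ran from -0.70 in P to 0.49 in N over the other cultures, so it mainly set G apart. A call needed an absolute log2 fold change above 0.5 together with an adjusted p under 0.05, and standard errors were derived from the test statistics. Single genes were also compared by exact permutation tests, and differences within letter sets were taken on log2(CPM + 1). The fits were tested on simulated counts.

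Alternatives were no factor or 2 factors, the letter sets as a block with and without culture G, the likelihood ratio test, DESeq2 1.42.0, its size factors, other filters, an offset of 0.1 and each culture left out in turn. The genes named are the 10 members, from each of 3 wider lists the 2 genes with the highest mean CPM and the gene with the smallest p per comparison, and for Cd74, B2m and Tap1 the 5 genes most alike by Spearman correlation, beside those said to be chosen after their values were seen. Members, lists and rules were chosen with earlier results of these data known. No cultures were duplicates, as at most 1.52% of the genes tested had equal counts in any pair.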

Additional observations from a re-analysis of the deposited data

Results flagged for a closer look

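In 6 of 30 groups of 4 cultures, a gene of the 10 had a culture set apart by Dixon's criterion for 4 samples. Its distance from the nearest other culture took up more of the group's range in CPM than the critical value allows. All 6 were untreated cultures. The criterion assumes normal values from 1 population, but the 4 cultures of a group came from 4 letter sets that differed. The flags therefore carry no chance rate. On the log2(CPM + 1) scale M stood apart less, as Cd74 had 1.80, 4.55, 7.09 and 0.12 in A, G, M and P. In M, the class II genes lay far above the other 3 untreated cultures, with 135 CPM of Cd74 against 0.083 to 22.4 CPM, 45.3 CPM of RT1-Da against 0.17 to 6.42 CPM, 33.1 CPM of RT1-Db1 against 0.33 to 3.05 CPM, 40.9 CPM of RT1-Ba against 0.17 to 5.19 CPM and 2.74 CPM of Ciita against 0.059 to 0.45 CPM. These genes share their culture and are not independent of each other. N and O, which follow M in letter, had 55.9 and 104 CPM of Cd74. In G, Tap2 had 145 CPM against 55.0 to 63.3 CPM in the other untreated cultures, and H and I, which follow G in letter, had 53.7 and 63.3 CPM.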

How the results depend on the processing

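Limits: with 4 cultures per condition, an exact test cannot go below p = 0.0286, the letter sets are not a stated pairing, and single class I counts depend on how reads of near-identical copies were counted. Class II genes had a few counts in A-B-C and P-Q-R, so depth limits what a dose comparison can show there. Fits with DESeq2 size factors, with no filter on low counts, by the likelihood ratio test and by DESeq2 kept the direction of the log2 fold change of all 10 genes in the 3 comparisons, none past the threshold. With at least 10 counts in every culture, the 5 class II genes could not be tested.

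The genes called over the whole table were 0 in the 3 comparisons. In high dose vs. untreated cultures they were 1 with 2 factors, 2 by the likelihood ratio test, 3 by DESeq2 and 15 with the letter set block without culture G. In high dose vs. low dose cultures they were 1 with 2 factors, 1 by DESeq2 and 14 with that block. Without culture G, 3 full letter sets remain. In low dose vs. untreated cultures, 1 of the 10 genes was higher in each of them (13.9% of all genes). In high dose vs. untreated cultures, 4 of the 10 were (15.1% of all genes). With culture G, 0 of the 10 were higher in all 4 letter sets in either comparison, against 4.06% and 5.22% of all genes.

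The direction of some log2 fold changes turned with the setting, and the cause was not tested. With no factor, the value was -0.13 for RT1-A2, -0.31 for Tap2 and -0.25 for Tapbp (low dose vs. untreated), and -0.15 for B2m, -0.11 for Tap1, -0.23 for Tap2 and -0.19 for Tapbp (high dose vs. untreated). With 2 factors, the value was -0.0017 for Tapbp (low dose vs. untreated), -0.050 for RT1-Db1 (high dose vs. untreated), and -0.0016 for RT1-Da and -0.068 for RT1-Ba (high dose vs. low dose). With at least 10 counts in every culture, the value was -0.032 for RT1-A2 and -0.043 for Tapbp (low dose vs. untreated). With the letter set block and culture G, the value was -0.083 for RT1-A2, -0.24 for Tap2 and -0.17 for Tapbp (low dose vs. untreated), -0.090 for B2m, -0.066 for Tap1, -0.16 for Tap2 and -0.084 for Tapbp (high dose vs. untreated), and -0.035 for RT1-Ba (high dose vs. low dose). With the letter set block without culture G, the value was 0.031 for B2m, -0.28 for Cd74, -0.57 for RT1-Da, -0.74 for RT1-Db1, -0.47 for RT1-Ba and 0.055 for Tap1 (low dose vs. untreated), -0.35 for RT1-Da, -0.69 for RT1-Db1, -0.34 for RT1-Ba and -0.51 for Ciita (high dose vs. untreated), and 0.048 for RT1-Db1 (high dose vs. low dose). The offset enters only the difference in mean log2 CPM, not the fitted log2 fold change. That difference was -0.0083 for RT1-Db1 (high dose vs. low dose) with an offset of 0.1, against 0.025 with an offset of 1.

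Leaving out each culture in turn, the genes called stayed at 0. The log2 fold change of low dose vs. untreated cultures then ran from -0.39 to 0.058 for B2m, -1.39 to 4.52 for Cd74, -1.17 to 2.27 for Ciita, -0.31 to 0.37 for RT1-A2, -1.29 to 4.97 for RT1-Ba, -1.45 to 5.76 for RT1-Da, -1.44 to 3.99 for RT1-Db1, -0.42 to 0.0096 for Tap1, -0.11 to 0.12 for Tap2 and -0.35 to 0.39 for Tapbp. That of high dose vs. untreated cultures ran from -0.21 to 0.21 for B2m, -0.15 to 4.63 for Cd74, -0.39 to 2.50 for Ciita, -0.084 to 0.58 for RT1-A2, -0.48 to 4.83 for RT1-Ba, -0.49 to 5.60 for RT1-Da, -0.54 to 3.79 for RT1-Db1, -0.13 to 0.28 for Tap1, -0.025 to 0.20 for Tap2 and -0.29 to 0.43 for Tapbp. That of high dose vs. low dose cultures ran from -0.011 to 0.31 for B2m, -0.51 to 1.91 for Cd74, -0.14 to 1.27 for Ciita, -0.85 to 1.63 for RT1-Ba, -0.84 to 1.81 for RT1-Da, -0.80 to 1.56 for RT1-Db1 and -0.15 to 0.23 for Tapbp. The highest values of the class II genes against the untreated cultures came without M, and those of RT1-A2, B2m, Tap1 and Tapbp without A. The labels give each culture a letter of its own, so the letter set block is not a stated pairing.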
